A study of Bos taurus with 16 samples.

Results

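Cattle kidney RNA that had been amplified 3 times was compared with a common reference RNA on a custom 2-colour array of bovine cDNA clones. The comparison rests on 4 arrays of the 16 in the study, those labelled type Round 3: kidney RNA 1 and kidney RNA K, each hybridised with kidney in Cy3 and again with kidney in Cy5. The reference on each array was RNA amplified for 2 rounds. Other arrays of the study carried kidney RNA that was unamplified (round 0) or amplified once or 2 times (rounds 1 and 2), with 2 RNAs at each round and the same reference. The labels give no strain, sex, age or treatment of the animals, do not say which tissue or cells the reference came from, and do not say whether 1 and K are separate animals, so a p-value here covers the spread of these RNAs alone, which may be technical.

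The title of the series gives the purpose, a check of linear amplification for RNA from single embryos. In linear amplification RNA is copied into cDNA that carries a phage promoter, and many RNA copies are transcribed from it. Later rounds usually start from random primers, so that copies tend to shorten towards the 3′ end of the transcript. The kidney cortex is mostly proximal tubule, an epithelium with a brush border of transporters and peptidases that takes up filtered solutes and burns fatty acids to drive the uptake. The loop, the distal tubule and the collecting duct adjust salt, calcium, acid and water further on.

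Values are given as log2 ratios, kidney over reference, and each array is centred so that 0 is the median feature (spotted clone) with a listed gene. The direction is likely and not stated: it was chosen so that kidney genes lie above the reference, so the sign of the nephron genes below is no result, and with the opposite direction all signs below are to be turned. On the 4 arrays, from 14536 to 15541 of 16896 spots had a ratio, and the duplicate spots of a clone correlated across clones at 0.603 to 0.818. A ratio cannot tell a high level in kidney from a low level in the reference. In RNA from a whole organ, fewer cells of a type and less RNA per cell cannot be told apart either.

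Of 5537 tested features, 1940 (35%) had a mean ratio different from 0 by limma at an adjusted p under 0.05, 925 (16.7%) above the reference and 1015 (18.3%) below it. They represent 1741 genes. The called ratio nearest to 0 had a size of 0.43, and all 39 features above 3 and all 19 below -3 were called. All 4 arrays lay on 1 side of 0 for 44.3% of all tested features, and for 1756 (90.5%) of those called, which were chosen by the mean of these arrays. The count moved with the processing: it was 1222 without centring (885 above and 337 below), 1074 with the spread taken from the round 3 RNAs alone, 1142 without replicate 1 and 885 without replicate K. Counts on many of the gene lists below moved too, and some of the larger moves are given beside them. A list without such a value is not thereby stable.

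**Figure D1:**
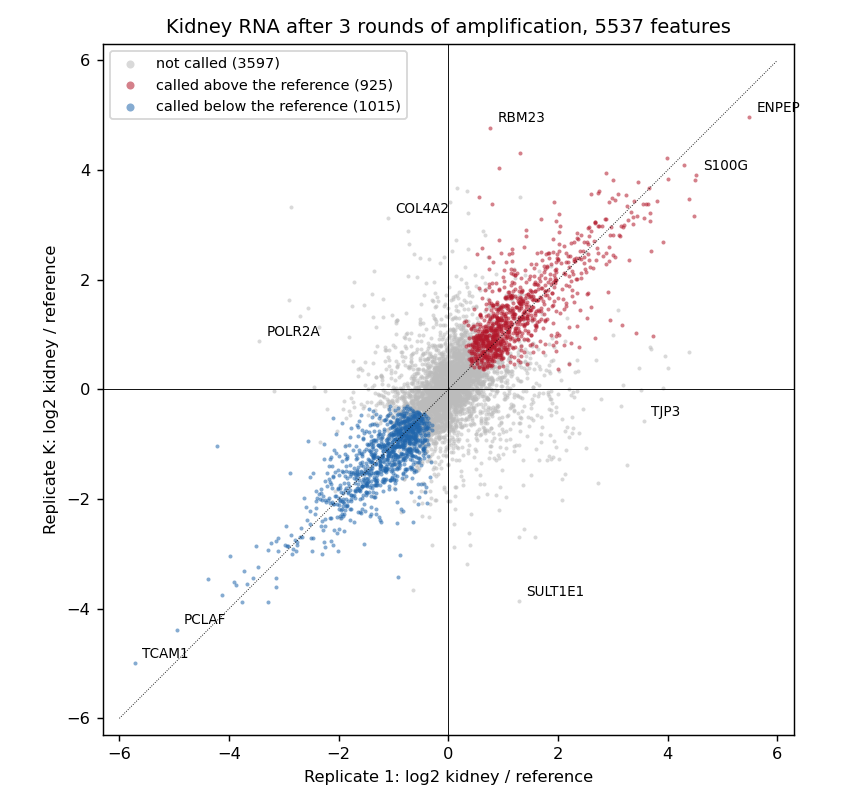
Each point is 1 of the 5537 tested features, with its log2 ratio of kidney over reference in replicate 1 on the horizontal axis and in replicate K on the vertical axis, each the mean of 2 arrays of opposite dye. Red marks the 925 features called above the reference, blue the 1015 called below it and grey the rest, and the dotted line is equality. Called features follow the line, while SULT1E1, POLR2A, COL4A2, TJP3 and RBM23 stand far from it.

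The averaged ratios of replicates 1 and K correlated at 0.722 across features, with a median difference in size of 0.33. Arrays of the same dye orientation and different RNA were more alike (0.766 with kidney in Cy3, 0.63 with kidney in Cy5) than arrays of the same RNA and opposite dye (0.363 for replicate 1, 0.53 for replicate K). These correlations are descriptions across features that share arrays. The arrays of replicate 1 gave opposite signs for 39.6% of the features, and those of replicate K for 29.0%. The mean over both orientations was therefore used.

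Among the tested features, which all have a listed gene, the farthest above the reference was ENPEP, aminopeptidase A of the brush border. Its ratio was 4.97 and 6.01 on the replicate 1 arrays with kidney in Cy3 and Cy5, and 4.20 and 5.72 on those of replicate K. The mean was 5.23 ± 0.38 (SD, n = 2), a ratio of 37.4 on the linear scale (limma, adjusted p = 0.000113). ANPEP, aminopeptidase N of the same membrane, read 4.02, 3.12, 3.25 and 3.02 in that order of arrays, with a mean of 3.35 ± 0.31 (adjusted p = 0.00038). Both peptidases were high on every array. Of the 8 features on the list of brush border peptidases, 4 were called above and 0 below. DPP4, which cleaves dipeptides from peptide ends, stood at 2.86, and MME (neprilysin) at 1.95 on 1 clone and 0.59, not called, on another. ACE and GGT1, which also sit on that membrane, were not called, at 0.21 for ACE and 0.47 and 0.57 for the clones of GGT1.

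Proximal tubule transport genes were also far above the reference. SLC7A7, the exporter of cationic amino acids on the blood side of the cell, read 3.74, 4.85, 3.52 and 4.68, with a mean of 4.20 ± 0.14 (adjusted p = 0.000113). AQP1, the water channel, read 3.83, 5.17, 3.35 and 4.31, with a mean of 4.16 ± 0.48 (adjusted p = 0.000113). PDZK1, the scaffold that holds brush border transporters, had a mean of 3.52 ± 0.19, and PDZK1IP1, a small membrane protein that binds it and is not on the proximal tubule list, 3.93 ± 0.66. For these 4 genes the array with kidney in Cy5 gave the higher ratio in each RNA. On the proximal tubule list 5 of 7 features were called above, with a list median of 3.11 against 0.01 for all tested features with 1 symbol. Beside SLC7A7, AQP1 and PDZK1, the called members were the fatty acid transporter SLC27A2 at 3.11 and GPX3, the plasma glutathione peroxidase that the kidney secretes. The actin linker EZR (-0.06) and the endocytic adaptor DAB2 (0.50) were not called.

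GPX3 read 3.37 and -0.70 in replicate 1 and 2.53 and 1.11 in replicate K, so that its sign differed between the arrays of replicate 1. Its mean was 1.58 ± 0.34 (adjusted p = 0.0202). In unamplified RNA its mean had been 6.62, and the difference of round 3 from round 0 was -5.04 (adjusted p = 0.00787).

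Further along the nephron, S100G, a vitamin D-dependent calcium buffer of the distal tubule, read 4.28, 4.74, 3.29 and 4.52 (mean 4.21 ± 0.42, adjusted p = 0.000113), and its other clone had a mean of 2.73. The rest of the loop and distal list was not called, including the calcium channel TRPV6 (-0.20) and the magnesium channel TRPM6 (1.45). The median of the loop and distal list was 1.35, and lay between 0.41 and 1.92 with 1 dye orientation or without either replicate. On the collecting duct list 13 of 23 features were called above and 4 below. All 3 clones of AQP3, the water and glycerol channel of principal cells, were called, at 2.99, 2.86 and 2.73. The sodium channel subunits SCNN1G and SCNN1A stood at 2.82 and 2.68, and HSD11B2, which inactivates cortisol, at 2.69. GATA3, a transcription factor of the duct, had 1 clone at 3.28 and another at 2.28 that was not called. CA12, also looked for as a marker of the duct, was not called on either clone (0.25 and -0.63). The 4 below were 1 clone of GATA2 and the clones of the keratins KRT8 (-2.91) and KRT18 (-2.18 and -1.98), which many simple epithelia express. Of the podocyte markers looked for, SYNPO alone was tested, and it was not called (0.07, with -0.80 in replicate 1 and 0.94 in replicate K).

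**Figure D2:**
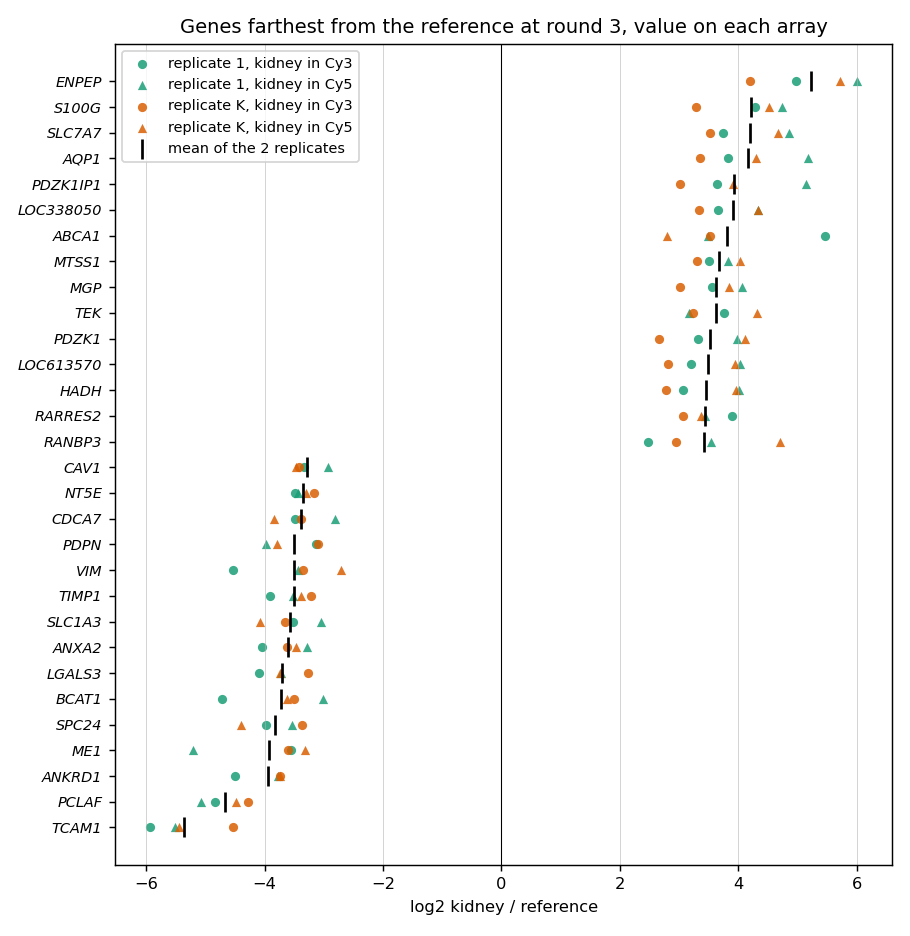
Log2 ratio of kidney over reference on each of the 4 arrays for the 15 genes with the highest and the 15 with the lowest mean at round 3, chosen among features called with all arrays on 1 side. Green is replicate 1 and orange replicate K, circles are arrays with kidney in Cy3 and triangles with kidney in Cy5, and the bar is the mean of the 2 replicates, from 5.23 for ENPEP to -5.36 for TCAM1.

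Genes of other classes were also far above. Among the 15 highest were ABCA1, the cholesterol exporter (3.82 ± 0.93), MTSS1, which shapes membranes and actin (3.67 ± 0.002), and MGP, the inhibitor of calcification (3.62 ± 0.27). TEK, the angiopoietin receptor of endothelium, stood at 3.62 ± 0.22, RARRES2, the precursor of chemerin, at 3.44 ± 0.32, and RANBP3, a cofactor of nuclear export, at 3.42 ± 0.57. LOC338050 (3.92) and LOC613570 (3.50) complete the set with HADH, described below. ABCA1 rests on 1 clone: that clone read 5.47, 3.49, 3.52 and 2.79, while 3 other clones of the gene were not called, at -0.94, 0.10 and 0.21.

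Endothelial genes lay above the reference, with 8 of 12 features called above, 0 below and a list median of 1.58 (5 above without replicate K or with kidney in Cy5 alone). After TEK came the VEGF receptor KDR at 2.51 and 1.88 on its clones, the transcription factor ERG at 2.40, PLVAP of fenestrated vessels at 2.10 and the adhesion molecule PECAM1 at 2.00 and 1.27. CDH5, the cadherin that defines endothelial junctions, was not called at -0.01 ± 0.34. In unamplified RNA CDH5 had been at 1.69, and the difference of -1.71 was called (adjusted p = 0.0158).

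Fatty acid oxidation was the metabolic list farthest above 0, with 16 of 24 features called above, 2 below and a median of 1.28. The list median lay between 1.14 and 1.59 with only 1 dye orientation, without either replicate or without centring, and the number above was 10 without replicate K. HADH, the hydroxyacyl-CoA dehydrogenase of mitochondria, read 3.08, 4.02, 2.78 and 3.96 (mean 3.46 ± 0.12, adjusted p = 0.000113). ECI2, which shifts double bonds of unsaturated chains, stood at 3.24 on 1 clone and 1.41 on another. Both clones of CPT1A, which commits fatty acids to mitochondria, were called, at 2.75 and 2.74, and ACSL1, which activates them, stood at 2.14. The 2 below were ACSL6 (-0.99) and ECHDC1 (-0.87). HADHA of the trifunctional protein was not called (-0.57).

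The citric acid cycle list had 10 of 20 features called above, but 4 without replicate 1, 4 without replicate K and 4 with kidney in Cy3 alone. Both clones of PDHA1 of pyruvate dehydrogenase were called (1.34 and 1.20), as were both of MDH2, mitochondrial malate dehydrogenase (1.26 and 0.54). The 1 below was ME1, the cytosolic malic enzyme, at -3.92 ± 0.65. Oxidative phosphorylation had 12 of 52 called above and 4 below, shares of 23.1% and 7.7% against 16.7% and 18.3% of all tested features. Its median of 0.26 was 0.47 with only kidney in Cy5 and -0.04 with only kidney in Cy3. The counts were 5 and 1 without replicate 1, 2 and 0 without replicate K, 20 and 1 with kidney in Cy5 alone and 5 and 6 with kidney in Cy3 alone. UQCRC1 of complex III (1.54, with another clone at 0.70 that was not called) and NDUFA10 of complex I (1.48) were its highest called members. CAT, the peroxisomal catalase, read 2.85, 3.91, 3.01 and 3.85 (mean 3.41 ± 0.04, adjusted p = 0.000198), and ALDH2, the mitochondrial aldehyde dehydrogenase, stood at 2.87. On the redox list that holds them 13 of 38 were called above and 5 below (2 below without centring, without replicate 1 or with kidney in Cy5 alone), with a median of -0.01 that turned positive without centring (0.30), without replicate K (0.03) and with either dye orientation alone (0.25 and 0.01).

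Glycolysis and gluconeogenesis showed the opposite: 0 of 22 features were called above and 12 below, with a median of -0.79, and the number below was 4 without centring, 7 without either replicate and 7 with kidney in Cy5 alone. LDHA, the lactate dehydrogenase subunit of glycolytic tissue, read -3.36, -2.87, -2.76 and -3.12 (mean -3.03 ± 0.12, adjusted p = 0.000122). The glucose transporter SLC2A3 stood at -2.37 ± 0.16 on 1 clone and -1.99 on the other. In amino acid metabolism 6 of 26 were called above and 7 below, with a median of 0.00. These were shares of 23.1% and 26.9%, against 16.7% and 18.3% of all tested features. The counts were 6 and 1 without centring, 3 and 1 without replicate 1 and 1 and 1 without replicate K. IVD, which breaks down leucine in mitochondria, stood at 3.19 on 1 clone and -0.19, not called, on the other, and MCCC1 of the same pathway at 1.79. BCAT1, the cytosolic transaminase of the branched-chain amino acids, stood at -3.72 ± 0.22.

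**Figure D3:**
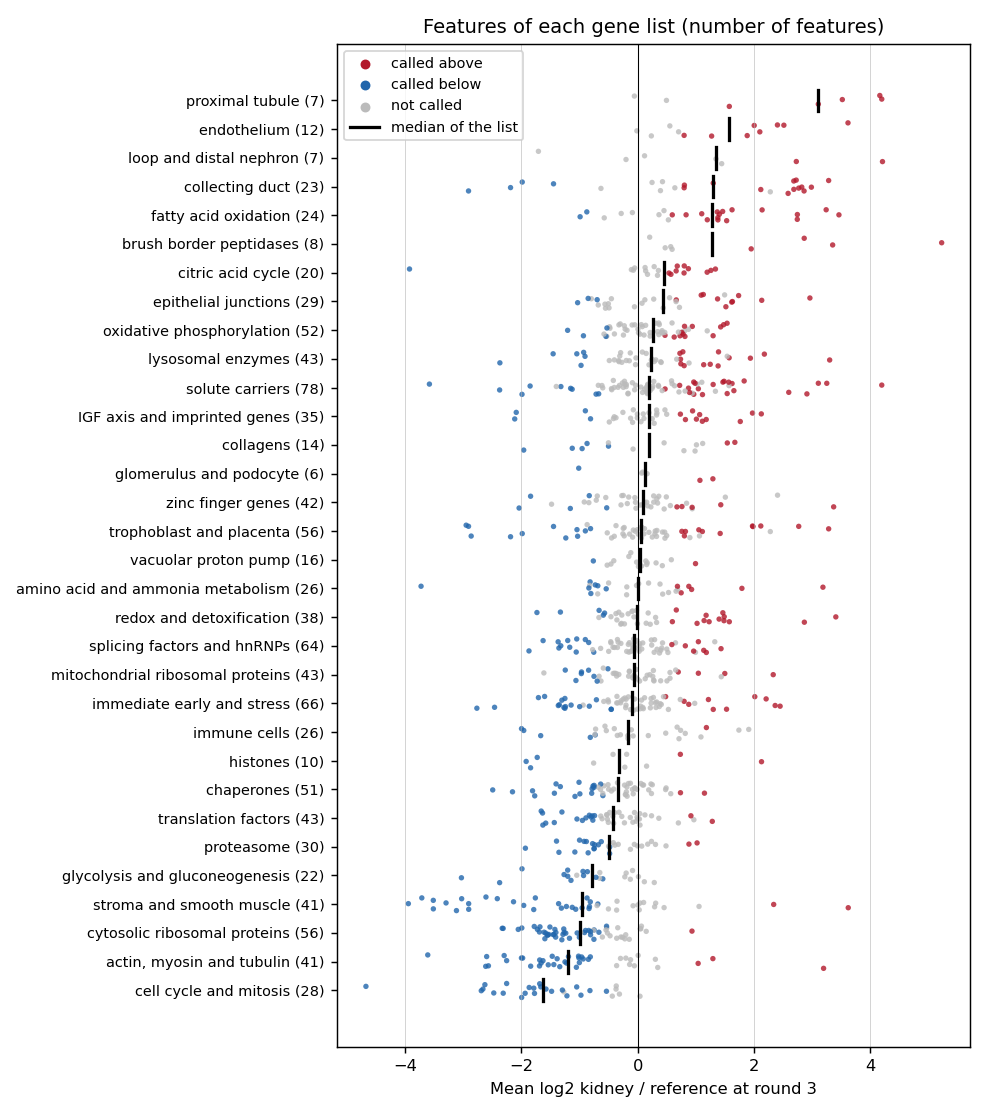
Mean log2 ratio of kidney over reference at round 3 for every tested feature of each gene list with 6 or more features, ordered by the list median (black bar); points are spread vertically at random within a list. Red marks features called above, blue features called below and grey those not called; the proximal tubule list is highest (median 3.11) and the cell cycle list lowest (median -1.62).

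The lowest list was that of the cell cycle, with 0 of 28 features called above, 22 below and a median of -1.62. The median lay between -1.77 and -1.31 without centring, with 1 dye orientation or without either replicate. The number below was 15 without centring and 15 of 23 with kidney in Cy5 alone. PCLAF, which binds the replication clamp, read -4.84, -5.07, -4.28 and -4.49 (mean -4.67 ± 0.40, adjusted p = 0.000113). The clamp itself, PCNA, stood at -2.47 ± 0.53. TPX2, which assembles the spindle, was at -2.69 ± 0.02, AURKB, a kinase of chromosome segregation, at -2.62, and the replication helicase subunits MCM4, MCM2 and MCM7 at -1.68, -1.66 and -0.82. SPC24 of the kinetochore (-3.82 ± 0.09) and CDCA7, which is expressed in S phase (-3.38 ± 0.33), were among the 15 lowest genes although they are not on the list. CCND3 (0.04) and both clones of CDK4 (-0.43 and -0.31), which act in the first gap phase, were not called.

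Genes of stroma and smooth muscle also lay below, with 26 of 41 features called below and 2 above (median -0.95, with 17 below without centring). Both clones of VIM, the intermediate filament of mesenchyme, were called, at -3.51 and -3.11, as were both of LGALS3 (galectin) at -3.71 and -2.90 and both of the matrix protein FN1 at -3.02 and -2.90. ANKRD1, a target of mechanical signalling, had a mean of -3.94 ± 0.28, TIMP1, an inhibitor of metalloproteinases, -3.51 ± 0.29, and CAV1 of caveolae -3.29 ± 0.22. The 2 above were MGP and FBLN5, an elastic fibre protein (2.34). The stroma markers were split. Beside VIM, COL1A2 was called below on 1 clone (-0.87) and not on the other (-0.50), while DCN (0.29) and COL3A1 (-0.08) were not called. Of the smooth muscle markers, MYH11 was called below (-1.36). DES and TAGLN each had 1 clone called below (-1.76 and -1.31) and another not called (-0.36 and 0.10). Collagens as a list had 2 of 14 above and 5 below (1 below without centring). These were shares of 14.3% and 35.7%, against 16.7% and 18.3% of all tested features. The collagen median of 0.19 turned negative without either replicate and with either dye orientation alone (from -0.55 to -0.04). Both clones of COL4A1 of basement membranes were called above, at 1.67 and 1.54.

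The list of actin, myosin and tubulin had 29 of 41 features below and 3 above (median -1.19), with 17 below without centring and 19 and 18 without replicates 1 and K. ANXA2, which joins actin to membranes, read -4.04, -3.29, -3.62 and -3.47 (mean -3.61 ± 0.09), and ANXA1 stood at -2.61 and -1.63 on its clones. An exception was CFL1, which severs actin filaments, at 3.20 ± 0.25, where unamplified RNA had given -1.52. The single farthest feature below was TCAM1, a cell adhesion molecule first described in testis, at -5.93, -5.51, -4.54 and -5.44 (mean -5.36 ± 0.52, adjusted p = 0.000385). SLC1A3, a glutamate transporter, stood at -3.58 ± 0.42, PDPN (podoplanin), which podocytes and lymphatic vessels carry, at -3.50 ± 0.08 (its other clone at -1.11, also called), and NT5E, which makes adenosine from AMP, at -3.35 ± 0.16.

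Cytosolic ribosomal proteins had 37 of 56 features called below and 1 above (median -0.99), with 21 below without centring and 19 without replicate K. RPS20 and RPL30 were the lowest, at -2.33 ± 0.42 and -2.31 ± 0.08, and RPS10 was the 1 above, at 0.94 ± 0.26, after -1.08 in unamplified RNA. With kidney in Cy5 alone the list median was -0.54 and with kidney in Cy3 alone -1.35. Mitochondrial ribosomal proteins had 4 of 43 above and 8 below (0 below without centring, and 3 and 2 without replicates 1 and K), and their median of -0.07 turned positive without centring (0.24) and without replicate K (0.07). The shares of this list were 9.3% above and 18.6% below, against 16.7% and 18.3% of all tested features. Its member MRPL20 was at 2.33 ± 0.02. The proteasome had 16 of 30 below and 2 above, but 1 below without centring, 7 without replicate 1, 2 without replicate K and 10 with kidney in Cy5 alone. Translation factors had 14 of 43 below and 2 above, or 5 below without centring or without replicate K, 7 without replicate 1 and 8 with kidney in Cy5 alone. Chaperones had 17 of 51 below and 2 above, or 7 below without centring or without replicate K and 9 without replicate 1. The small heat shock protein HSPB1 had 1 clone at -2.49 ± 0.04, after 0.89 in unamplified RNA, and 3 clones that were not called, at 0.25, 0.23 and 0.19. HSP90B1 of the endoplasmic reticulum stood at -2.15 ± 0.27. Among histones, 2 of 10 were above, with H2BC21 at 2.13, and 3 below, with the variants H2AZ1 and H2AZ2 at -1.92 and -1.84. Of all tested features 16.7% were above and 18.3% below, and 10 features are too few to tell the histones from these shares. The number of histone features above was 0 without replicate 1 and 1 without replicate K. With kidney in Cy5 alone 1 was above and 4 below.

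The lists of solute carriers, epithelial junctions and lysosomal enzymes had more features called above than below. Their shares above were 28.2%, 34.5% and 30.2%, against 16.7% of all tested features. Their shares below were 11.5%, 10.3% and 14.0%, against 18.3%. Solute carriers had 22 of 78 features above and 9 below, with 10 above without replicate K. SLC40A1, the iron exporter, stood at 3.25 ± 0.16. The solute carrier median of 0.20 was -0.03 with kidney in Cy5 alone, where 16 were called above and 12 below. Epithelial junctions had 10 of 29 above and 3 below (0 below without centring, 1 without replicate K). The cadherin CDH1 stood at 2.96 ± 0.24 on 1 clone and at -0.79, not called, on the other. Occludin, OCLN, was at 2.13 ± 0.08, while CLDN7, a claudin, was at -0.85 ± 0.38. Their median of 0.44 was -0.10 with kidney in Cy5 alone. Lysosomal enzymes had 13 of 43 above and 6 below (8 and 2 without replicate 1, 7 and 2 without replicate K, 1 below without centring), led by LGMN, the protease legumain, at 3.30 ± 0.20 and the acid lipase LIPA at 2.18 ± 0.23, while the cholesterol carrier NPC1 had 1 clone at -2.37 ± 0.31 and another at -0.20 that was not called. The vacuolar proton pump had 1 of 16 on either side, a share of 6.2% each way. With kidney in Cy5 alone 4 were above and 1 below, and with kidney in Cy3 alone 0 above and 0 below.

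Other cell types, and some further gene classes that mark no cell type, were looked at through their own lists. Over all tested features 16.7% were called above and 18.3% below. The placental list had 19.6% above and 19.6% below, and the splicing factors 10.9% and 18.8%. Immediate early and stress genes had 15.2% and 25.8%, and zinc finger genes 11.9% and 11.9%. Immune cell genes had 1 of 26 features above and 5 below, the latter a share of 19.2% against 18.3% of all tested features, with a median of -0.17. Without centring 4 were above and 3 below, with a median of 0.14, and 3 were below without replicate K. BOLA-DRB3, a class II histocompatibility chain, stood at 1.18, and IGHM, the immunoglobulin heavy chain, and CORO1A of white cells at -1.99 and -1.96. The defining markers CD14 (0.68 and -0.35) and CD74 (-0.11) were not called. No feature for haemoglobin was tested, and the 1 blood gene tested was GYPC (1.78 ± 0.45). The placental list had 11 of 56 on either side (7 and 7 without replicate 1, 5 and 9 without replicate K), and of its trophoblast markers 1 of 6 features, a clone of PAG11, was called (1.05). Of the immediate early and stress genes 10 of 66 were above and 17 below, with 8 below without centring, 7 without replicate 1 and 8 without replicate K, where 4 were above. TXNIP had clones at 2.45 and 2.36 and another at 0.33 that was not called, JUNB had 1 clone at -2.76 and another at 0.09 that was not called, and CDKN1A stood at -2.46. Of the splicing factors 7 of 64 were above and 12 below (5 below without centring or without replicate K), and of the zinc finger genes 5 of 42 on either side (3 and 3 without replicate 1, 2 and 3 without replicate K), ZNF350 being the highest at 3.37. The list of IGF and imprinted genes had 10 of 35 above and 4 below, with 6 above without replicate 1 and 3 without replicate K. GNAS and H19 each had 1 clone called above, at 2.13 and 1.97, and another not called, at 0.29 and 0.11, and NAP1L5 stood at -2.09. Glomerular genes had 2 of 6 above, ACTN4 (1.29) and VEGFA (1.07), and 1 below, CD2AP (-1.01). The glomerular counts above and below were 0 and 0 with kidney in Cy3 alone (4 features measured). They were 1 and 1 with kidney in Cy5 alone (5 features measured) and 2 and 0 without centring. Their list median of 0.125 was 1.03 without replicate 1 and -0.34 without replicate K. The part of cell types in any of these ratios was not tested.

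Several genes had more than 1 clone on the array, which gives separate readings annotated to the same gene. Of 905 genes with at least 2 tested clones, 127 (14.0%) had all clones called on 1 side, 336 (37.1%) some clones on 1 side, 417 (46.1%) none and 25 (2.8%) clones on both sides. The median range between the clones of a gene was 0.58. For the 30 farthest genes, 9 other clones were tested: 5 were called on the same side, 3 were not called and 1, of RANBP3, was called on the opposite side (-0.66). IGFBP3, which carries insulin-like growth factors in plasma, had clones at 1.76, 0.74 and -2.11, each with an SD of at most 0.24. TGFBR2, a TGF-beta receptor, had clones at 1.98 and -1.59, and GATA2 at 2.77, 0.80, 0.43 and -1.44. For C21H15orf39 the clones stood at 2.81 ± 2.12 and -0.998 ± 0.27. These genes were chosen for their clones on both sides, so the ranges are a description. The replicates of the higher C21H15orf39 clone stood at 1.31 and 4.31.

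**Figure D4:**
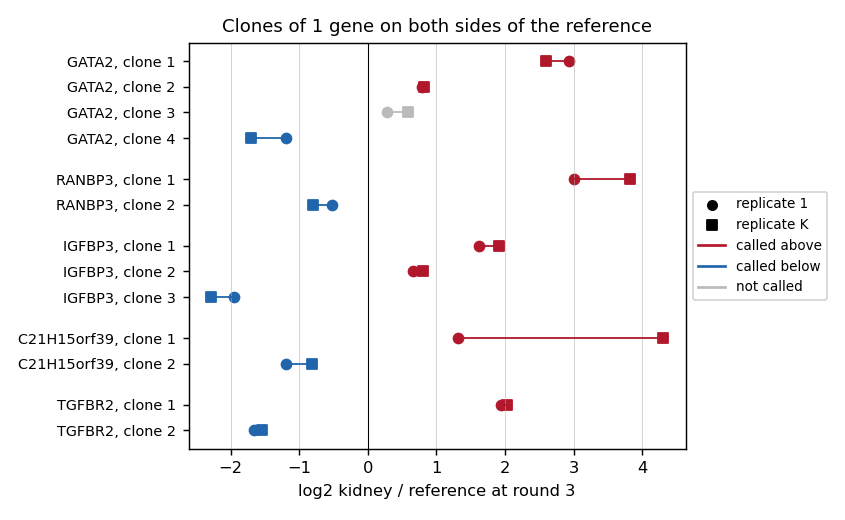
Log2 ratio of kidney over reference at round 3 for each tested clone of the 5 genes with the widest range among genes with clones called on both sides. Circles are replicate 1 and squares replicate K, joined by a line, and colour gives the call. The outermost clones of GATA2, RANBP3, IGFBP3 and TGFBR2 lie farther apart than the replicates of any of their clones. The higher RANBP3 clone has replicates at 3.01 and 3.82, and 1 clone of C21H15orf39 has replicates far apart.

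The replicates disagreed widely for some features: 692 of the 5537 (12.5%) differed by more than 1 between RNAs 1 and K. Of 192 features with a mean beyond 1 that were not called, 112 were of this kind. The 5 widest gaps were looked up among features with 1 symbol and a mean beyond 1 in size, called or not. All 5 lacked a value on 1 array. SULT1E1, which sulphates oestrogen, read 3.78 and -1.19 in replicate 1 and -3.87 on the 1 array of replicate K. RBM23, an RNA-binding protein, read 0.85 and 0.67 in replicate 1 and 4.78 on the 1 array of replicate K, and it was called at 2.77 ± 2.84 (adjusted p = 0.0452). POLR2A, COL4A2 and TJP3 were not called. In all, 414 tested features had an RNA measured in 1 orientation only, and 64 of them were called.

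The comparison with round 2 asks whether another amplification changed the ratios. All rounds were read against the same reference, which was itself amplified for 2 rounds. Limma called 0 of 5537 features (0%) between rounds 3 and 2, where 403 (7.28%) had an unadjusted p under 0.05. With all 16 arrays in a fit with a dye term and the RNA as a random block, it called 1, RHOB, a small GTPase (-1.78, adjusted p = 0.0381, against 0.314 over the 8 RNAs). The estimated correlation of arrays of 1 RNA in that fit was -0.062, so it counted the 2 arrays of an RNA as nearly independent. RHOB stood at 1.40 at round 2 and at -0.38 ± 0.01 at round 3, with -0.82, 0.08, -0.34 and -0.43 on the arrays. The other features with the smallest p did not pass: the differences were 3.61 for LOC515150, -2.06 for ZMYND8, -1.97 for CAMK2G and -1.81 for COPZ1. The 15 highest genes at round 3 had been between 2.64 and 5.37 at round 2, and the 15 lowest between -5.80 and -3.09. A difference that did not pass does not show that the rounds were alike. Between rounds 3 and 1, 16 features (0.289%) were called, all lower at round 3, among them PNRC2 (0.16 after 3.82), DDX17 (-0.09 after 3.07) and the anti-apoptotic MCL1 (-1.25 after 0.77).

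Between round 3 and unamplified RNA 642 features (11.6%) differed, 258 (4.66%) higher and 384 (6.94%) lower at round 3. Of the 30 farthest genes, 5 were among them. SLC7A7 stood at 2.84 at round 0 and 4.20 at round 3. LOC338050 went from 5.20 to 3.92 and MGP from 5.72 to 3.62. BCAT1 went from -2.02 to -3.72 and NT5E from -1.38 to -3.35. Each of these stayed on its side of the reference. IGFBP3 had a clone that did not: it was at 1.53 in unamplified RNA and at -2.11 at round 3, a difference that was called. Among the lists, splicing factors had 12 of 64 features lower than at round 0 and 2 higher, and the IGF and imprinted list 9 of 35 lower and 2 higher.

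**Figure D5:**
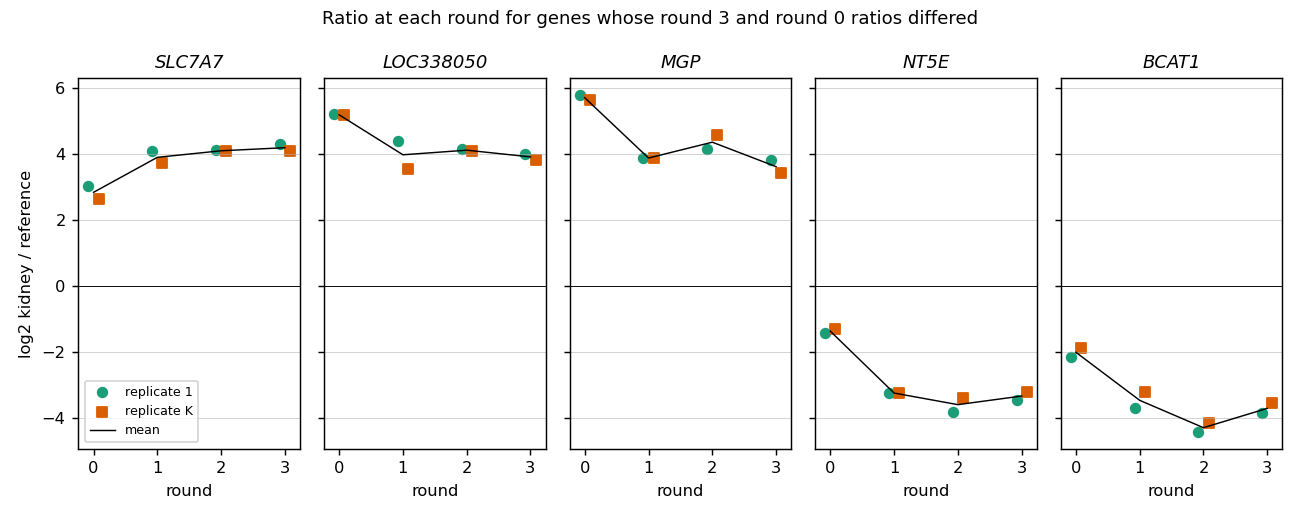
Log2 ratio of kidney over reference in unamplified RNA (round 0) and after 1, 2 and 3 rounds of amplification for the 5 of the 30 farthest genes whose round 3 ratio differed from that at round 0. Points are replicates 1 and K (each the mean of a dye swap) and the line joins the means; SLC7A7 goes from 2.84 to 4.20, and the other genes go down, as MGP from 5.72 to 3.62.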

How the data were processed

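The deposited values of the round 3 arrays are log2 ratios of the 2 channels; Trizol-isolated RNA was labelled as amino-allyl cDNA, per the labels. For replicate 1 of round 1 with kidney in Cy3 the deposited column is called a score because numbers outside the range of a ratio stand beside its ratios. Sources used here do not give the scanner, image software or normalization. Values beyond 10 in size, such as the code 16.61, were taken as missing. Arrays with kidney in Cy3 were sign-turned, arrays were centred on their median over features with a listed gene, and duplicate spots (8448 rows apart) and then the dye swap of each RNA were averaged. Of 8448 features 5693 have a listed gene, 5598 with 1 symbol and the rest with several; 2755 have none here. Tested were 5537 listed features measured in both RNAs at each round. Of the 4360 genes among them with 1 symbol, 4354 were found in the gene table of assembly ARS-UCD2.0, each with the same symbol.

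Limma 3.58.1 in R 4.3.3 fitted a mean for each round over 8 RNAs (4 residual and 2.37 prior degrees of freedom, Benjamini-Hochberg over all tested features, threshold 0.05); the script was tested on simulated data. The number of arrays limits the precision, and no exact test with 2 RNAs can pass. Members and gene lists were chosen with earlier results of these data known, so lists are described by counts and medians only. Named are the 15 highest and 15 lowest called genes with all arrays on 1 side. From each list come the 2 farthest called each way. Also named are the 5 smallest p against round 2 and the 5 widest replicate gaps among means beyond 1 in size. The 5 widest genes with clones on both sides and cell type markers complete the set. Other list members were named after their values were seen. Mitochondrially encoded genes had 0 features. Correlations across features carry no p. Same-numbered replicates deviated together above 0.1 in 1 of 6 pairs of rounds (rounds 2 and 3, 0.168), so the numbers were not shown to pair the RNAs. Sequences and protein lengths were not analysed here. Columns of no sample numbered 0.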

Additional observations from a re-analysis of the deposited data

Results flagged for a closer look

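On 2 of the 30 farthest genes 1 of the 4 round 3 arrays stood apart from the rest by a gap above Dixon's critical value for 4 values. ANKRD1 read -4.50 on the replicate 1 array with kidney in Cy3 and -3.77 to -3.74 on the others. ME1 read -5.20 on the replicate 1 array with kidney in Cy5 and -3.60 to -3.32 on the others. Chance gives such a gap in about 1 of 20 groups, and the 4 arrays are 2 RNAs.

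Among the same genes, 5 had a round 3 ratio that differed from that of unamplified RNA in the limma contrast: SLC7A7 by 1.36, LOC338050 by -1.28, MGP by -2.09, BCAT1 by -1.70 and NT5E by -1.97.

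Features without a listed gene were outside the tests. Of 2470 with values at every round, 579 (23.4%) were called at round 3 when all features were fitted together, 302 above and 277 below, with means from -3.56 to 5.29. These may include control spots as well as clones.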

How the results depend on the processing

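The count of 1940 features called at round 3 was 1222 without centring, 1074 with only the RNAs of round 3 fitted and 282 when tested against a log2 ratio of 1 in size (limma treat); it lay between 885 and 1142 when a round 3 replicate was left out. Without centring the median of all tested features was 0.32 in place of 0.01 and the calls were 885 above and 337 below. The other alternatives, among them arrays of 1 dye orientation only, stricter duplicate spots, other scalings and no filter on listed genes, gave 1553 to 2356. With a replicate block the counts were 1909 at round 3 and 0 against round 2. The comparison with round 2 gave 1 call with all 16 arrays and a dye term. Of 148 called features named, 146 did not change sign in any of the 13 settings that measured them. Under stricter duplicate spots 98 of the 148 were kept. Both spots had to be present and within 1 log2 unit on every round 3 array. Of the 148, 103 kept their call wherever measured, 33 lost it without replicate K, 26 without replicate 1 and 18 without centring; with kidney in Cy3 only, ECHDC1 turned to 0.12 and PRPF6 to 0.39, and the cause was not tested. The 30 farthest genes kept their call in the settings with both round 3 RNAs where they were measured. They were chosen by their values on these same arrays, so this is no separate support. Under stricter duplicate spots 18 of the 30 were kept. The fit on features with both dye orientations measured for both round 3 RNAs (1946 calls) was chosen after seeing the data. The comparison by protein length was not run. Signal over background was not analysed here, so dim spots were kept.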

Other observations

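Genes named here were chosen after their values were seen. Resident macrophages of the kidney clear debris and make complement. Of the immune cell list 1 of 26 features was called above and 5 below, and CD14 of monocytes and macrophages was not called (0.68 and -0.35). Some other features of macrophage genes were called above: the complement chains C1QA at 2.96 ± 0.0005 (SD, n = 2, adjusted p = 0.000875 by limma) and C1QB at 2.63 ± 0.28 and 2.33 ± 0.16 on its clones, C1QC at 1.98 and 1.43, the complement receptor VSIG4 at 3.30 ± 0.87 and 2.55 ± 0.29, and MPEG1, a pore-forming protein of phagocytes, at 2.90 ± 0.12. The scavenger receptor CD163 (0.48) and CD68 (1.74 ± 1.51) were not called, and LAPTM5, a lysosomal protein of white cells, was called below at -0.81. RSAD2, an interferon-induced antiviral enzyme, stood at 3.41 ± 0.75 and MX1, another interferon-induced gene, at 1.29 ± 0.23. PHYH, which starts the breakdown of branched-chain fatty acids in peroxisomes, stood at 3.25 ± 0.30.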
